A study of Mus musculus with 12 samples.

Results

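Glycogen is the stored form of glucose, and 9 of the 23042 entries in each expression table of the study are described here across its libraries. They are Stbd1, a protein that binds glycogen and membranes, and the glycogen enzymes Ugp2, Gyg, Gys1, Gbe1, Pygm, Pygb, Gaa and Epm2a. Stbd1 was chosen because it was lower in the ventricles of transgenic mice, so its ventricle values are a description and carry no test. The other 8 were chosen as enzymes of glycogen metabolism. RNA was sequenced from the heart ventricles and the epididymal white adipose tissue (EWAT) of WT mice and of MED13cTg mice, which overexpress the Mediator subunit MED13 in the heart. There were 3 mice per genotype and tissue, with 1 library per mouse in each tissue and 12 libraries in all. The sources used here do not say whether both tissues came from the same mice. All were male littermates on the C57BL/6 background, 6 weeks old by the sample labels, on normal chow and sampled while fed. The promoter of the transgene is not given in the sources used here. Expression is given in FPKM, the fragments of a gene per kilobase of transcript and scaled to the mapped fragments of the library.

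To build glycogen, cells turn glucose 1-phosphate into UDP-glucose, prime a chain on the protein glycogenin, lengthen it with glycogen synthase and branch it with the branching enzyme. Breakdown in the cytosol is led by glycogen phosphorylase, while a separate route carries glycogen to the lysosome, where acid alpha-glucosidase degrades it. Heart muscle keeps glycogen as a ready fuel, and loss of several enzymes of either route is known to cause glycogen storage disease.

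Promoter sequence is shown for Stbd1 and for Ppp1r3c, which targets protein phosphatase 1 to glycogen, because these genes had the lowest ratios of MED13cTg to WT in ventricles among the glycogen genes described here. The 250 bases before each start site were taken from RefSeq on GRCm38.p6, and capitals mark matches to the motifs searched. Stbd1 lies at chr5:92602801-92603050 on the plus strand and Ppp1r3c at chr19:36736605-36736854 on the minus strand, both written 5′ to 3′ in the direction of the gene.
Stbd1: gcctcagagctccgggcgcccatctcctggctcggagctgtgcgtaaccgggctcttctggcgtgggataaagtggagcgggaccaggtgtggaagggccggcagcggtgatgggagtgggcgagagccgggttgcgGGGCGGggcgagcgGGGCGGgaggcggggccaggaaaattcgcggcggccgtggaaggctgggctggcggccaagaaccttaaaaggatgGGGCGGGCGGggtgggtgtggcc
Ppp1r3c: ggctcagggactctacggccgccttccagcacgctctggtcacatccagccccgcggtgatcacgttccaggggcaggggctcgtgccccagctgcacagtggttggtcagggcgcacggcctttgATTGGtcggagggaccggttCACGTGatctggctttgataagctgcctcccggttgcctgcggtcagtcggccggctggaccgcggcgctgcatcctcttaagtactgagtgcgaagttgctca
On either strand, 5 motifs were searched, namely the E-box CACGTG, the nuclear receptor element AGGTCA, the promoter motif CCAAT, the GC box GGGCGG and the TATA box TATAAA. The Stbd1 window held 4 matches to GGGCGG, beginning 113, 99, 23 and 19 bases before the start, the last 2 of which overlap, and no match to the other motifs. In the Ppp1r3c window there was 1 match to CACGTG, beginning 104 bases before the start, and 1 to CCAAT, beginning 124 bases before it. Among 32851 mouse promoter windows of the same length, 32.7% held GGGCGG, 6.02% held CACGTG and 33.8% held CCAAT. All 9 genes matched a window, of which 5 genes had GGGCGG, 2 had CCAAT, 1 had CACGTG, 1 had AGGTCA and 0 had TATAAA. Ugp2 was counted from 2 windows, both with GGGCGG and 1 with CCAAT. Unlike for the other genes, the bases checked after either Ugp2 start were in no reference transcript of the gene. No motif of the search was shared by the windows of Stbd1 and Ppp1r3c.

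Med13, the gene overexpressed, matched the genotype labels. It was at 13.1, 10.6 and 11.5 FPKM in WT ventricles and at 263, 181 and 204 FPKM in MED13cTg ventricles. In EWAT it was at 10.1 ± 0.764 FPKM in WT and 9.85 ± 1.75 FPKM in MED13cTg mice (SD, n = 3). Absolute depth is unknown from FPKM. Depth relative to WT replicate 1, read from the lowest values, was 0.920 to 1.02 in ventricles, 0.865 to 0.933 in WT replicates 2 and 3 of EWAT, and 0.664, 0.747 and 0.877 in MED13cTg EWAT.

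Some libraries stood apart from others of their own genotype, and some marker sums differed between genotypes. By rank correlation over all genes, the ventricle libraries fell into cluster 1 (WT replicate 1 with MED13cTg replicates 1 and 2) and cluster 2 (WT replicates 2 and 3 with MED13cTg replicate 3), with correlations of 0.959 to 0.969 within and 0.944 to 0.957 between clusters. Markers of ventricular myocytes were present in all 6 ventricle libraries. Atrial markers summed to 447 to 743 FPKM in WT ventricles and to 996, 2443 and 1160 FPKM in MED13cTg ventricles, and macrophage markers to 39.04 to 50.0 and 51.5 to 56.8 FPKM. In EWAT, the 8 adipocyte markers summed to 10497, 28460 and 19340 FPKM in WT and to 991, 62696 and 14919 FPKM in MED13cTg mice. Most of this sum was Fabp4, at 8454, 23380 and 15509 FPKM in WT against 726, 48366 and 11969 FPKM in MED13cTg EWAT. Fabp4 was also at 2770 to 4261 FPKM in ventricles, so it is not particular to adipocytes. Epididymis markers summed to 49021 to 61702 FPKM in WT EWAT and to 7941, 157 and 47565 FPKM in MED13cTg EWAT. Every MED13cTg EWAT library was thus below every WT one in this sum, so genotype and epididymis content cannot be told apart there. None of the adipocyte markers was at 0 in any EWAT library. Germ cell markers of the testis stood at 13638 FPKM in MED13cTg replicate 1 of EWAT, against 5.83 to 344 FPKM in the other 5 EWAT libraries. In bulk samples of this kind, fewer cells of a type and less RNA per cell cannot be told apart.

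In ventricles, Stbd1, chosen for its drop and not tested, was about 2-fold lower in MED13cTg mice and varied little within a genotype. None of the 8 glycogen enzymes passed the test between genotypes. Stbd1 is thought to hold glycogen at membranes and to hand it to the lysosomal route. In WT ventricles it was at 9.35, 8.78 and 9.36 FPKM, and in MED13cTg ventricles at 4.37, 4.41 and 4.25 FPKM. Every MED13cTg library was thus below every WT library. The ratio of the MED13cTg to the WT mean was 0.474, with 9.16 ± 0.332 FPKM in WT and 4.35 ± 0.0852 FPKM in MED13cTg mice (SD, n = 3). Its coefficient of variation, 3.63% in WT and 1.96% in MED13cTg ventricles, was the smallest of the 9 genes in both genotypes. On the log2(FPKM + 1) scale the difference was -0.93. It was -0.94 within cluster 1, within cluster 2 and without MED13cTg replicate 2, the library with the highest atrial marker sum. The atrial sum was mostly Nppa, which the paper reports as raised in MED13cTg ventricles, so a higher sum need not mark atrial tissue. None of the 4 atrial or 4 macrophage markers was at 0. Both sums were higher in every MED13cTg than in every WT ventricle library. Taken singly, only Nppa of the atrial and Csf1r of the macrophage markers separated the genotypes. Myl4, Myl7 and Sln overlapped and were highest in MED13cTg replicate 2, and Cd68, Emr1 and Cd163 overlapped too. Of the 8 skeletal muscle markers, Acta1 and Ckm are also made by heart muscle. None of the 8 was at 0 throughout, and 2 were under 1 FPKM in each library. Their sum was lower in every MED13cTg library, at 2717 to 3077 FPKM against 3275 to 3608 FPKM in WT. Most of it was Ckm, at 3038, 3056 and 3252 FPKM in WT against 2438, 2763 and 2811 FPKM in MED13cTg ventricles. Tnni2 went the other way, at 17.9, 18.0 and 22.7 FPKM in WT against 33.2, 47.4 and 28.0 FPKM in MED13cTg ventricles. The other markers of this list overlapped between genotypes. The part of these marker sets in the Stbd1 difference was not tested. The choice of Stbd1 rests on these same values, so they are given without a p-value. The spread of Stbd1 and its differences within clusters or without a library reuse those values and are a description only. In the mm9 annotation of the deposited table, Stbd1 is at chr5:93032076-93035605 with no other gene in its locus.

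The test between genotypes was limma on log2(FPKM + 1). It covered the 12589 ventricle genes whose mean reached 1 FPKM, and p-values were adjusted over all of them by the Benjamini-Hochberg method. A gene was called at an adjusted p under 0.05. Of the 8 enzymes, 0 were called and 0 had an unadjusted p under 0.05, while 0.0556% of all genes were called and 4.73% had an unadjusted p under 0.05. Their median log2 fold change was -0.16, beside -0.014 over all genes tested, and 7 of the 8 were below 0. Only Ugp2 had no overlap between genotypes, in the lower direction, where 5.85% of all genes had none.

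Ugp2, the pyrophosphorylase that makes UDP-glucose, was at 101, 101 and 114 FPKM in WT ventricles and at 95.9, 83.0 and 93.2 FPKM in MED13cTg ventricles. Its highest MED13cTg value was close to its lowest WT value (log2 fold change -0.21, standard error 0.12, adjusted p = 0.966, limma). The Ugp2 locus, at chr11:21138367-21271112 in mm9, also holds Vps54 and Mir1933, and the library kit does not keep strand. Gyg, the glycogenin that primes each chain (chr3:20021969-20054995 in mm9), was at 197, 138 and 154 FPKM in WT against 167, 208 and 130 FPKM in MED13cTg ventricles. These values overlapped throughout.

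Gys1, the muscle glycogen synthase, was at 30.1, 43.7 and 44.9 FPKM in WT ventricles and at 26.1, 24.5 and 41.5 FPKM in MED13cTg ventricles. The groups overlapped, with WT replicate 1 near the lower MED13cTg libraries and MED13cTg replicate 3 near the higher WT ones (log2 fold change -0.37, standard error 0.24, adjusted p = 0.966, limma). Within clusters the difference was smaller, at -0.24 in cluster 1 and -0.09 in cluster 2. Gys1 shares its locus, chr7:52677267-52711987 in mm9, with Ruvbl2. The liver synthase Gys2 was nearly absent from ventricles, at 0 to 0.124 FPKM, so Gys1 made up at least 99.5% of the summed synthase FPKM in each ventricle library.

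Gbe1, the branching enzyme (chr16:70314331-70569961 in mm9), was among the steadiest genes described here. It was at 27.8, 29.1 and 30.6 FPKM in WT ventricles and at 29.7, 27.8 and 27.4 FPKM in MED13cTg ventricles. The 95% confidence interval of its log2 fold change ran from -0.27 to 0.19, which leaves room for a modest change in either direction.

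**Figure D1:**
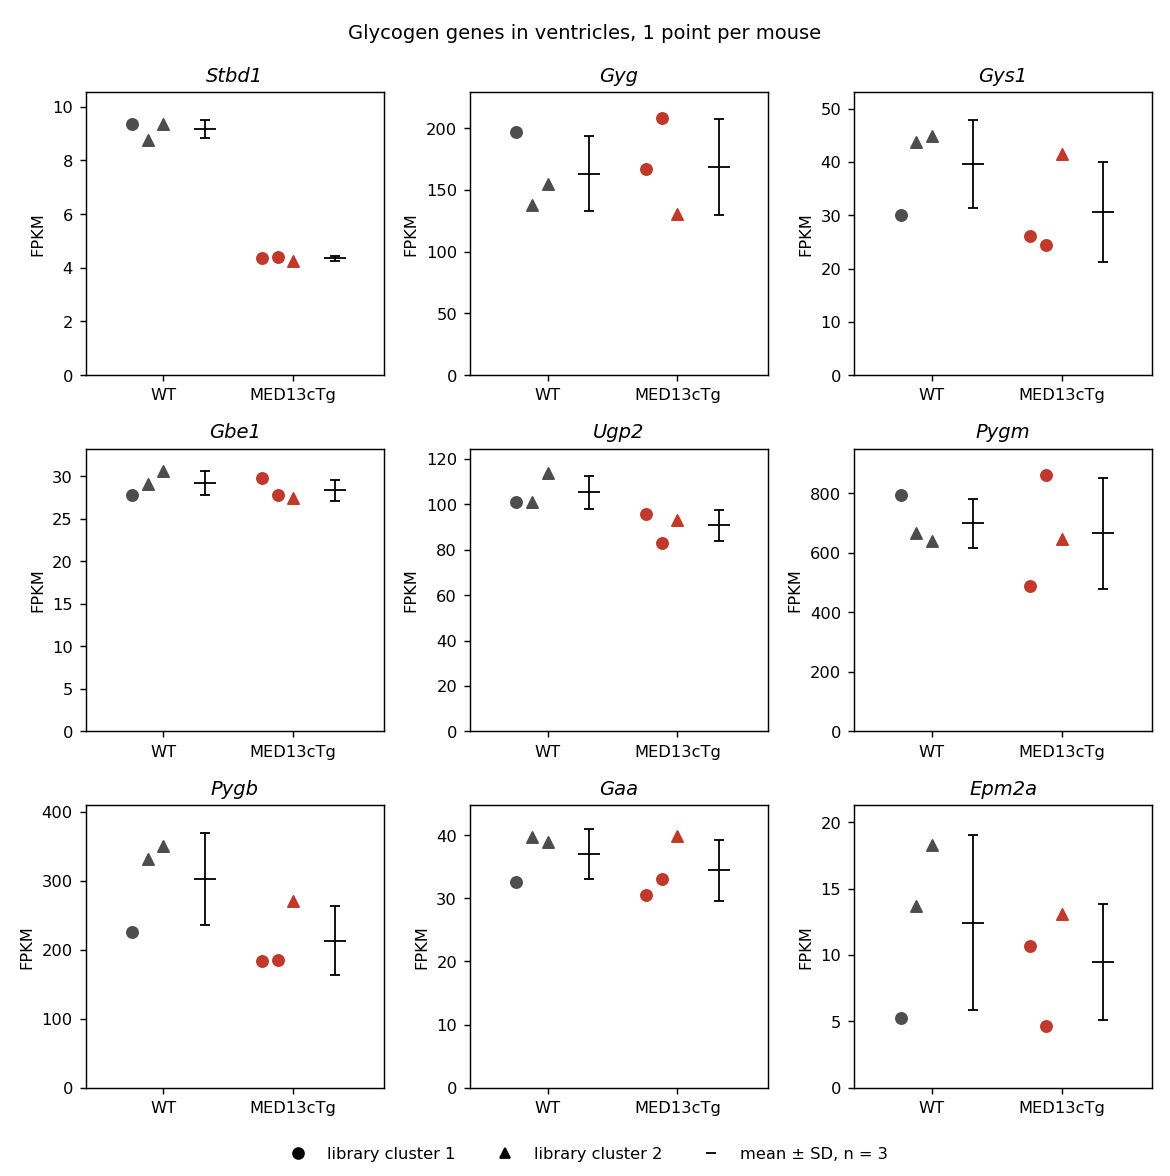
FPKM of the 9 genes in ventricles, with 1 point per mouse, WT in grey and MED13cTg in red, circles for library cluster 1 and triangles for cluster 2, and bars for the mean ± SD (n = 3). Stbd1 separates at 8.78 FPKM or more in WT and 4.41 FPKM or less in MED13cTg mice, while Gys1, Pygb, Gaa and Epm2a separate by cluster instead.

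The muscle phosphorylase Pygm (chr19:6384428-6398459 in mm9) had the highest level of the 9 genes in ventricles. It was at 794, 666 and 640 FPKM in WT against 488, 861 and 647 FPKM in MED13cTg ventricles, so that MED13cTg libraries held both its lowest and its highest value. The brain phosphorylase Pygb (chr2:150612531-150657484 in mm9) was at 226, 331 and 350 FPKM in WT against 183, 185 and 271 FPKM in MED13cTg ventricles. Its 2 lowest values were in MED13cTg mice and its 2 highest in WT mice, but the groups overlapped (log2 fold change -0.50, standard error 0.23, unadjusted p = 0.0703, adjusted p = 0.966, limma). Pygb was lower in MED13cTg mice within each cluster, with log2 differences of -0.29 in cluster 1 and -0.33 in cluster 2. With the cluster as a covariate in limma its difference was -0.31 (standard error 0.09, unadjusted p = 0.0135, adjusted p = 0.582), which also missed the threshold. Under that fit, 967 of the 12589 genes had an unadjusted p under 0.05. The clusters were drawn from these same libraries, so this p-value is a description only.

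The liver phosphorylase Pygl was a minor form in ventricles, at 27.1, 6.28 and 4.55 FPKM in WT against 19.0, 7.68 and 4.86 FPKM in MED13cTg mice. In share of the summed phosphorylase FPKM, Pygm took 75.8%, 66.4% and 64.3% in WT and 70.7%, 81.7% and 70.1% in MED13cTg ventricles. Pygb took 21.6%, 33.0% and 35.2% in WT and 26.5%, 17.6% and 29.3% in MED13cTg ventricles. The muscle form was thus the main one in each ventricle library.

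**Figure D2:**
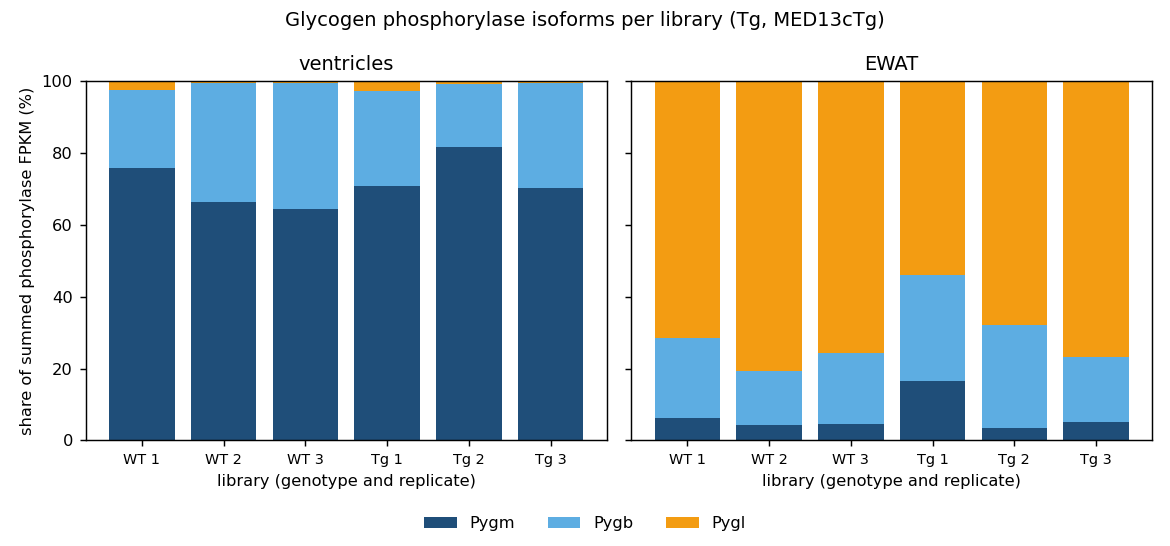
Share of the summed FPKM of Pygm, Pygb and Pygl that each isoform took, in percent, with 1 stacked bar per library (Tg, MED13cTg) for ventricles on the left and EWAT on the right. Pygm takes 64.3% to 81.7% in ventricles, and Pygl takes 54.1% to 80.6% in EWAT.

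Gaa, the acid alpha-glucosidase of the lysosome (chr11:119129280-119147012 in mm9), was at 32.5, 39.6 and 38.8 FPKM in WT ventricles and at 30.5, 33.0 and 39.8 FPKM in MED13cTg ventricles. The groups overlapped, and the 95% confidence interval of the log2 fold change was -0.44 to 0.23. Epm2a (chr10:11063242-11177275 in mm9) encodes laforin, a phosphatase that acts on glycogen. It was at 5.29, 13.7 and 18.3 FPKM in WT against 10.7, 4.62 and 13.1 FPKM in MED13cTg ventricles, the widest relative spread of the 9 genes in both genotypes, with a coefficient of variation of 53.0% in WT. Nhlrc1, the ubiquitin ligase malin that acts with laforin, was at 4.17, 4.39 and 5.88 FPKM in WT against 4.84, 4.77 and 4.54 FPKM in MED13cTg ventricles, which overlapped.

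Several of the enzymes separated by library cluster rather than by genotype. Gys1, Pygb, Gaa and Epm2a were higher in every library of cluster 2 than in any of cluster 1, and Gyg was lower. Over all 12589 genes, 17.1% were higher and 23.1% lower in cluster 2 without overlap, and the clusters were drawn from these same libraries, so the counts are a description. The ratio of the cluster 2 to the cluster 1 mean was 2.19 for Epm2a, 1.61 for Gys1, 1.60 for Pygb, 1.23 for Gaa and 0.739 for Gyg. Stbd1, Gbe1, Ugp2 and Pygm overlapped between clusters. Cluster 1 holds 2 of the 3 MED13cTg libraries and 1 of the 3 WT libraries, so genotype and cluster are unevenly mixed, and what sets the clusters apart was not tested.

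The order of levels within ventricles was nearly the same in both genotypes. From the highest mean, WT ventricles had Pygm, Pygb, Gyg, Ugp2, Gys1, Gaa, Gbe1, Epm2a and Stbd1. Neighbours in this order had separate ranges over the 3 libraries, except Gys1 with Gaa and Epm2a with Stbd1. In MED13cTg ventricles Gaa and Gys1 changed places, and the ranges of Pygb with Gyg, Gaa with Gys1 and Gys1 with Gbe1 overlapped. Epm2a and Stbd1, which overlapped in WT, did not overlap in MED13cTg ventricles, where Epm2a was at least 4.62 FPKM and Stbd1 at most 4.41 FPKM.

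Beyond the 9 genes, 29 other genes of glycogen metabolism were compared, of which 27 passed the filter on low values in ventricles. None was called in either direction, and 3 had an unadjusted p under 0.05, where 4.73% of all genes tested had one. Their median log2 fold change was -0.057, beside -0.014 over all genes tested, with 8 above and 19 below 0. Genotypes did not overlap for 2 lower genes, Ppp1r3c and Gabarapl1, and for 1 higher gene, Ppp1r3e, beside 5.85% and 3.46% of all genes in those directions.

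Ppp1r3c had the largest difference of the 27 tested. It was at 61.2, 69.2 and 70.1 FPKM in WT ventricles and at 36.6, 26.3 and 47.2 FPKM in MED13cTg ventricles. All MED13cTg values were lower by a clear margin (ratio of means 0.550, log2 fold change -0.88, standard error 0.21, unadjusted p = 0.00426, adjusted p = 0.902, limma), yet the gene was not called. The difference was -0.95 in cluster 1, -0.55 in cluster 2 and -0.67 without MED13cTg replicate 2, the library with the lowest value. Gabarapl1, an autophagy protein that binds Stbd1, was at 116, 111 and 84.8 FPKM in WT against 79.2, 76.6 and 83.9 FPKM in MED13cTg ventricles. The lowest WT and the highest MED13cTg value nearly touched (log2 fold change -0.36, standard error 0.15, unadjusted p = 0.0442, adjusted p = 0.966, limma). Ppp1r3e, a second phosphatase targeting subunit, was low but higher in MED13cTg ventricles, at 2.61, 1.84 and 1.45 FPKM against 0.976, 1.39 and 1.07 FPKM in WT (log2 fold change 0.45, standard error 0.18, unadjusted p = 0.0406, adjusted p = 0.966, limma). Its log2 fold change was 0.71 with a pseudocount of 0.1, and 0.30 without MED13cTg replicate 1, the library with the highest value.

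**Figure D3:**
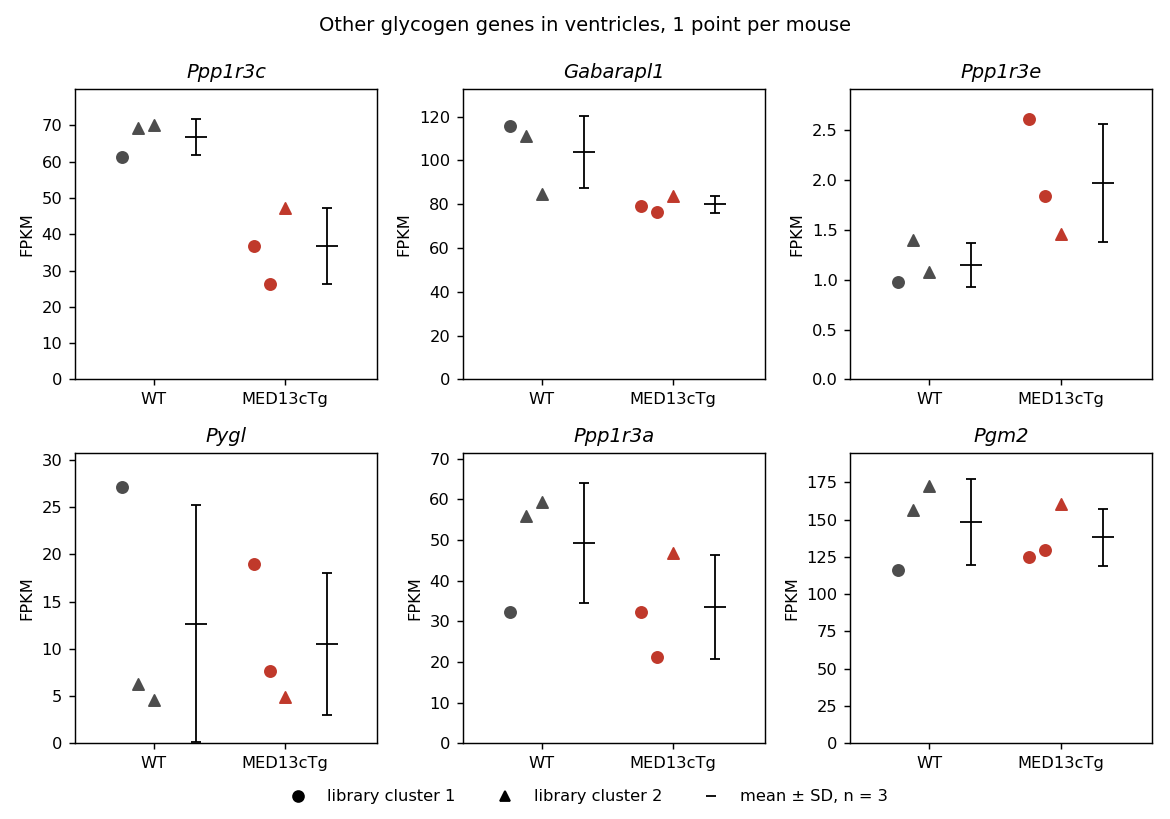
FPKM of 6 other glycogen genes in ventricles, with 1 point per mouse, circles for library cluster 1, triangles for cluster 2, and bars for the mean ± SD (n = 3). The genotypes separate for Ppp1r3c, Gabarapl1 and Ppp1r3e, and the clusters for Pygl, Ppp1r3a and Pgm2, of which Ppp1r3a and Pgm2 were picked for this plot after their values were seen.

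The genes with the pattern most like that of Stbd1 over the 6 ventricle libraries were found by the Pearson correlation of log2(FPKM + 1) over all genes tested. They were Gsto1 (r = 0.998), Bdh1 (0.996), Lrrc4b (0.994), Ndufs1 (0.993) and Rhd (0.988). Because Stbd1 has 2 levels, one per genotype, a high r mainly marks genes that also differ between genotypes with little spread. Bdh1, a mitochondrial enzyme of ketone body use, was at 11.3, 8.34 and 11.2 FPKM in WT against 1.73, 1.42 and 1.51 FPKM in MED13cTg ventricles. Ndufs1, a subunit of respiratory complex I, was at 495, 516 and 561 FPKM in WT against 198, 226 and 201 FPKM in MED13cTg ventricles. Gsto1, a glutathione transferase, differed less, at 179 ± 3.12 FPKM in WT and 142 ± 2.35 FPKM in MED13cTg ventricles (SD, n = 3). None of these genes belongs to glycogen metabolism.

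In EWAT, none of the 9 genes was called, and MED13cTg replicates 1 and 2 were far apart for several of them. Stbd1 was at 8.14, 9.89 and 11.6 FPKM in WT EWAT and at 2.62, 6.30 and 9.62 FPKM in MED13cTg EWAT. MED13cTg replicates 1 and 2 were below every WT library, and replicate 3 was within the WT range (log2 fold change -0.72, standard error 0.44, 95% confidence interval -1.80 to 0.37, adjusted p = 0.738, limma). Without MED13cTg replicate 1 the difference was -0.29. MED13cTg replicate 3 alone, the 1 library left without the other two, differed from the WT mean by -0.02 on the log2 scale. The test covered 14967 genes, of which 0.0134% were called, 1.25% had an unadjusted p under 0.05, and 0 of the 9 had one. Their median log2 fold change was -0.25, beside 0.012 over all genes tested.

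Several glycogen enzymes of EWAT moved with the adipocyte, endothelial and macrophage markers across libraries. Gyg was at 45.7, 71.6 and 59.7 FPKM in WT EWAT and at 12.1, 111 and 52.1 FPKM in MED13cTg EWAT. Its order over the 6 libraries was that of the adipocyte marker sum, and the same held for Gbe1, Ugp2 and Pygm. The 3 endothelial markers, with sums of 60.4, 121 and 84.1 FPKM in WT against 12.5, 271 and 74.2 FPKM in MED13cTg EWAT, put the libraries in that same order. So did the 4 macrophage markers, with sums of 22.5, 38.04 and 36.4 FPKM in WT against 11.1, 73.2 and 31.6 FPKM in MED13cTg EWAT. The order was thus shared by these 3 marker sums, but not by the epididymis marker sum. That sum was 51925, 49021 and 61702 FPKM in WT against 7941, 157 and 47565 FPKM in MED13cTg EWAT. In each WT library it was above the adipocyte marker sum. MED13cTg replicates 1 and 2, the lowest in epididymis markers, were also the lowest for Stbd1 and Gaa. Gbe1 was at 13.0, 25.5 and 21.2 FPKM in WT against 5.41, 51.4 and 19.9 FPKM in MED13cTg EWAT. Gys1 was at 14.6, 18.6 and 14.8 FPKM in WT against 2.06, 54.1 and 15.5 FPKM in MED13cTg EWAT. The level in MED13cTg replicate 2 was higher than in MED13cTg replicate 1 by 26.2-fold for Gys1, 9.51-fold for Gbe1, 9.43-fold for Pygb and 9.16-fold for Gyg, and the adipocyte marker sum by 63.2-fold. Of the 9 genes, 8 had their lowest value in MED13cTg replicate 1, 7 had their highest in MED13cTg replicate 2, and 8 had MED13cTg replicate 3 within the WT range. How often all genes tested did the same was not counted, so these counts are a description and mark no trait of glycogen genes. Whether the makeup of the tissue sets these levels was not tested.

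The remaining EWAT members spread less. Ugp2 was at 24.1, 32.2 and 31.3 FPKM in WT against 19.8, 45.7 and 27.9 FPKM in MED13cTg EWAT. Pygm was at 9.80, 11.7 and 10.6 FPKM in WT against 5.77, 12.02 and 10.5 FPKM in MED13cTg EWAT. MED13cTg replicate 3 alone, 1 mouse, differed from the WT mean by -0.06 for Ugp2 and by -0.02 for Pygm on the log2 scale. Gaa did not follow the adipocyte markers at their upper end, at 42.0, 33.7 and 41.9 FPKM in WT against 15.8, 30.6 and 35.9 FPKM in MED13cTg EWAT. Epm2a alone had no overlap between genotypes, at 2.00, 1.29 and 2.27 FPKM in WT against 2.42, 3.94 and 2.55 FPKM in MED13cTg EWAT, where 4.88% of all genes were higher without overlap. Its log2 fold change of 0.47 (standard error 0.32, adjusted p = 0.738, limma) did not pass the test.

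**Figure D4:**
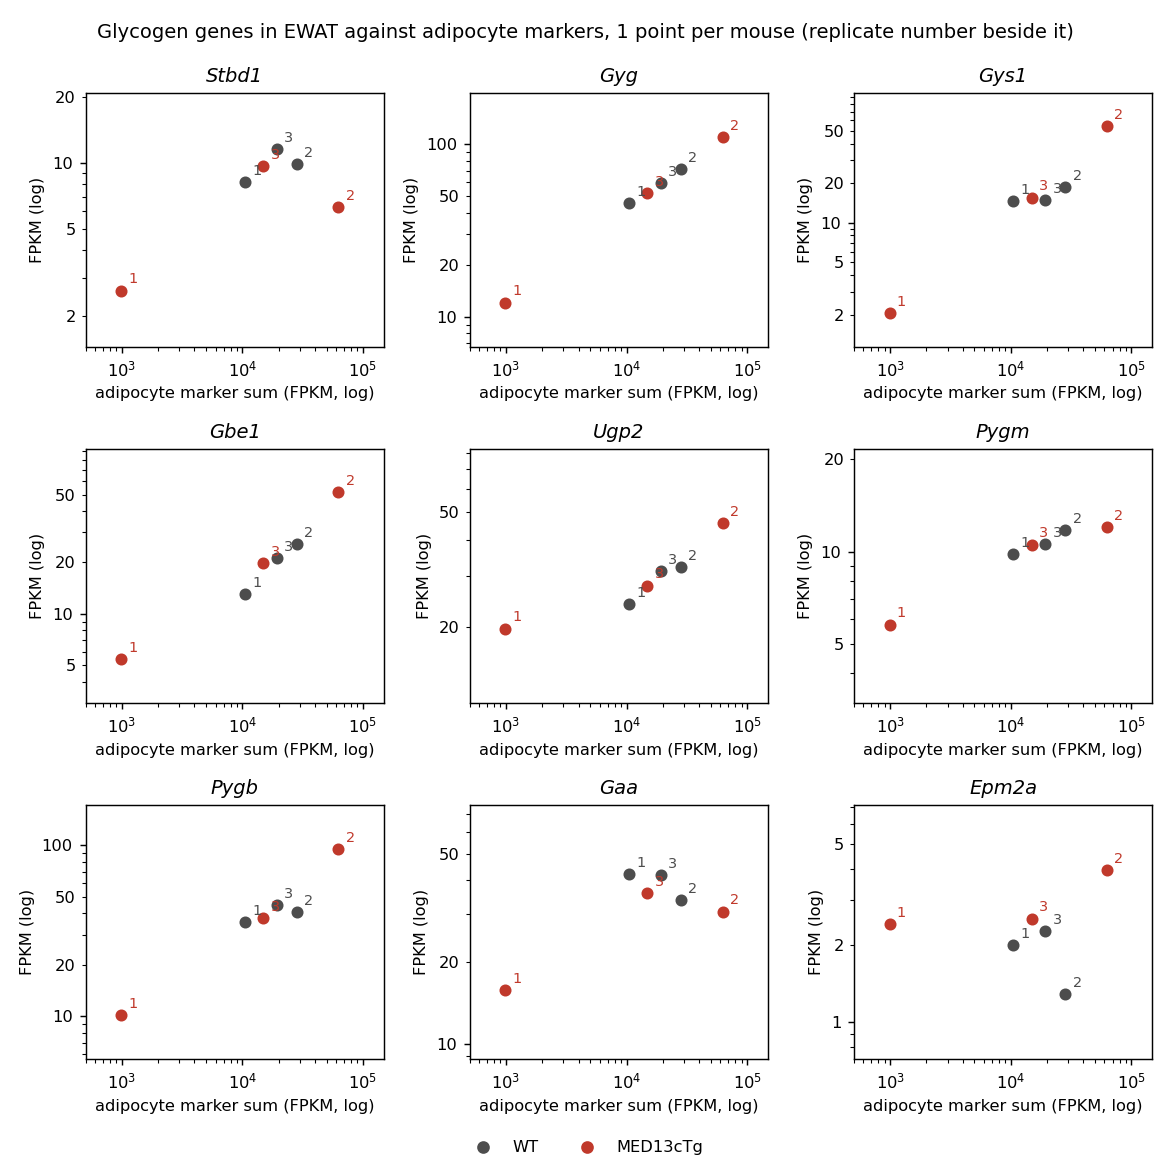
FPKM of the 9 genes in EWAT (log axis) against the summed FPKM of 8 adipocyte markers (log axis), with 1 point per mouse, WT in grey and MED13cTg in red, and the replicate number beside each point. MED13cTg replicate 1, at a sum of 991 FPKM, and MED13cTg replicate 2, at 62696 FPKM, lie at the ends of each panel, with the other 4 libraries between them.

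The isoforms used in EWAT differed from those in ventricles. Pygl took 71.6%, 80.6% and 75.8% of the summed phosphorylase FPKM in WT EWAT and 54.1%, 67.9% and 76.9% in MED13cTg EWAT. Pygb was second, at 35.5, 40.6 and 44.8 FPKM in WT against 10.1, 95.5 and 37.4 FPKM in MED13cTg EWAT. Gys1 remained the main synthase, with Gys2 at 0.209, 0.921 and 0.947 FPKM in WT against 0.0661, 1.81 and 1.45 FPKM in MED13cTg EWAT. Stbd1 was at like levels in WT mice of both tissues, at 9.16 FPKM in ventricles and 9.87 FPKM in EWAT, although the tables of the tissues were estimated separately and such a comparison is approximate.

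By mean level, WT EWAT had Gyg, Pygb, Gaa, Ugp2, Gbe1, Gys1, Pygm, Stbd1 and Epm2a from the highest to the lowest. The ranges of Pygb with Gaa, Ugp2 with Gbe1, Gbe1 with Gys1 and Pygm with Stbd1 overlapped, and the other neighbours were apart. In MED13cTg EWAT the ranges of all neighbours overlapped.

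Of the 29 other glycogen genes, 25 passed the filter in EWAT, 0 were called and 0 had an unadjusted p under 0.05. Without overlap, Prkab2 was higher and Prkag1 and Lamp2 were lower in MED13cTg EWAT, beside 4.88% and 7.8% of all genes in those directions. Prkab2, a subunit of the energy sensor AMPK that can bind glycogen, was at 3.97, 3.19 and 3.34 FPKM in WT against 9.496, 4.83 and 4.71 FPKM in MED13cTg EWAT (log2 fold change 0.65, standard error 0.32, adjusted p = 0.738, limma). Lamp2, a membrane protein of lysosomes, was at 173, 177 and 198 FPKM in WT against 59.3, 160 and 167 FPKM in MED13cTg EWAT. Prkag1, another AMPK subunit, was at 60.3, 59.7 and 61.6 FPKM in WT against 27.7, 56.3 and 51.9 FPKM in MED13cTg EWAT. The extreme value of Prkab2, Lamp2 and Prkag1 alike was in MED13cTg replicate 1. Without that library the log2 fold change went from 0.65 to 0.36 for Prkab2, from -0.64 to -0.16 for Lamp2 and from -0.47 to -0.16 for Prkag1. Ppp1r3c, the gene furthest apart in ventricles after Stbd1, overlapped in EWAT at 5.77, 9.70 and 8.76 FPKM in WT against 2.13, 13.0 and 4.60 FPKM in MED13cTg mice.

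**Figure D5:**
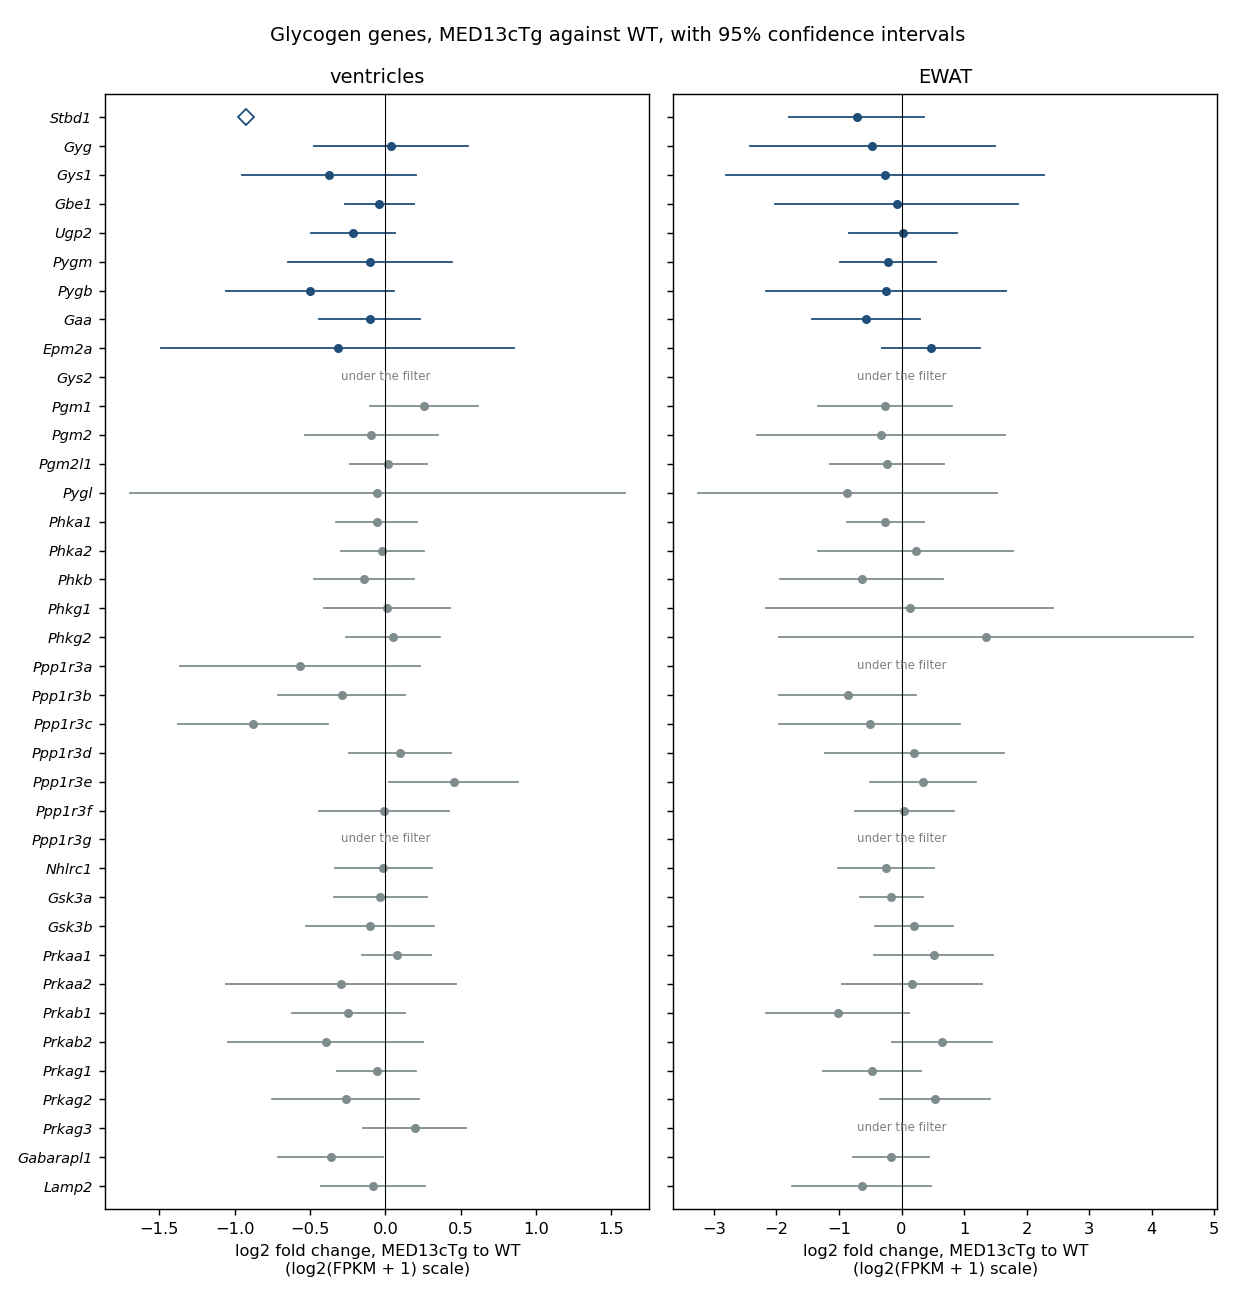
Log2 fold change of MED13cTg to WT on the log2(FPKM + 1) scale for the 9 genes (blue) and 29 other glycogen genes (grey) in ventricles (left) and EWAT (right), with bars for the 95% confidence interval of limma, and genes under the filter on low values named as such. Stbd1 in ventricles (open diamond, -0.93) has no interval because it was chosen on this difference, and the intervals in EWAT are wider on an axis that spans more.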

How the data were processed

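FPKM values per gene and library were deposited by the authors as 1 table per tissue, made from reads aligned with TopHat to mm9, per the submitters' processing notes, and estimated with Cufflinks, with versions not given in the sources used here. FPKM corrects for transcript length and mapped fragments, not for the cells in a sample. The TruSeq kit does not keep strand, so overlapping genes share reads, and 341 entries per table join several symbols. Columns of the authors' means and folds and 1 unnamed EWAT column were not used. The labels and the paper differ on the RNA input.

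Genes whose mean reached 1 FPKM in the 6 libraries of a tissue were fitted with limma 3.58.1 in R 4.3.3 on log2(FPKM + 1), with a mean-variance trend, 1 tissue at a time and with no covariate. The pseudocount of 1 makes fold changes of low genes too small. Adjustment was by Benjamini-Hochberg, two-sided, at 0.05. The fit was run on simulated data with planted changes larger than those of the glycogen genes and noise from WT libraries. That run does not show how often changes of the size seen here would be called. Other values came from Python 3.11.15, numpy 2.4.6 and pandas 2.3.3, with plots in matplotlib 3.10.9. Relative depth was the peak of the ratios to WT replicate 1 among values under 0.15 FPKM.

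The 9 genes, the other lists and the library clusters were chosen with earlier results of these data known. The text names the 9 genes, then Gys2, Pygl and Nhlrc1, any other glycogen gene called, up to 5 per direction and tissue with the largest change without overlap, and the 5 genes most like Stbd1. Of the other glycogen genes first listed, 1 is not reported here and was left out of the counts.

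The sample labels number replicates 1 to 3 in each genotype, and same-numbered libraries of WT and MED13cTg are different mice. Deviations from the group means had correlations between same-numbered libraries of 0.347, 0.304 and 0.144 in EWAT and of 0.0855, -0.192 and 0.140 in ventricles. Differently numbered libraries of the 2 genotypes had correlations of up to 0.168 in EWAT and 0.188 in ventricles. The reported fits did not use the numbers as pairs. The replicate block was run as another setting in both tissues. Nothing states that the mice were handled as separate batches.

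Other settings were median-of-ratios scaling, a pseudocount of 0.1, a filter at 5 FPKM and none, array weights, quantile normalization, the replicate block, no trend, each library left out, MED13cTg replicates 1 and 2 of EWAT left out together, the ventricle cluster as a covariate and, added after seeing the data, the adipocyte marker sum as a covariate.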

Additional observations from a re-analysis of the deposited data

Results flagged for a closer look

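Prkab2, an AMPK subunit from the list of other glycogen genes, had a ratio of the MED13cTg to the WT mean of 0.731 in ventricles and of 1.81 in EWAT. It was singled out because each MED13cTg library was below the WT mean in ventricles and above it in EWAT. The 9 genes and the 29 others were screened for opposite sides of this kind, where they passed the filter in both tissues. Only Prkab2 came out. How many of all genes would meet the rule was not counted, so the pick is a description only. In ventricles the genotypes overlapped, at 11.5, 19.1 and 22.8 FPKM in WT against 15.2, 9.67 and 14.2 FPKM in MED13cTg mice. Without MED13cTg replicate 1, the highest EWAT library, the EWAT log2 fold change was 0.36 in place of 0.65. In ventricles it was -0.40, and -0.20 without WT replicate 3 or -0.21 without MED13cTg replicate 2. The difference between the tissues was not tested, and the gene was called in neither.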

How the results depend on the processing

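In both tissues 0 of the glycogen genes other than Stbd1, and in EWAT 0 of the 9, were called under the settings run. With the replicate number as a block, those counts were also 0. Over all genes, the block gave 3 higher and 1 lower in ventricles, against 3 and 4 as reported. In EWAT it gave 0 higher and 0 lower, against 0 and 2 as reported. Stbd1 in ventricles stayed at -0.93 with the block, since a block cannot change a fold change in this balanced layout. Its log2 fold change moved to -1.06 with a pseudocount of 0.1 and to -0.89 with array weights. It lay between -0.95 and -0.91 with single libraries left out. These settings reuse the values on which Stbd1 was chosen and are a description only. Over all genes, 3 to 15 were called in ventricles (7 as reported) and 0 to 19 in EWAT (2 as reported), the highest counts with array weights in ventricles and without MED13cTg replicates 1 and 2 in EWAT. A change of sign was met only in genes that were not called, and the cause was not tested. In ventricles these were Epm2a (0.054) and Gyg (-0.12) with the cluster as a covariate, Nhlrc1 with the cluster (0.016) and with array weights (0.042), Pygl with array weights (0.83), and, with quantile normalization, Prkag1 (0.016) and Pygm (0.00079). With single libraries left out, the ventricle ranges were -0.79 to 0.081 for Epm2a, -0.13 to 0.21 for Gyg, -0.17 to 0.026 for Lamp2, -0.091 to 0.12 for Nhlrc1, -0.10 to 0.0035 for Prkag1, -0.55 to 0.66 for Pygl and -0.31 to 0.10 for Pygm. In EWAT, array weights gave 0.28 for Gbe1, 0.020 for Gyg, 0.42 for Gys1 and 0.15 for Pygb. The adipocyte marker sum as a covariate, chosen after seeing the data, gave 0.37 for Gbe1, 0.32 for Gys1 and 0.18 for Pygb. Without MED13cTg replicates 1 and 2 together, which leaves 1 MED13cTg library assumed to vary like the WT libraries, the values were 0.046 for Gbe1, 0.10 for Nhlrc1 and -0.056 for Ugp2, and quantile normalization gave -0.055 for Ugp2. The EWAT ranges with single libraries left out were -0.81 to 0.71 for Gbe1, -1.16 to 0.38 for Gyg, -1.25 to 0.84 for Gys1, -0.99 to 0.57 for Pygb, -1.54 to 0.23 for Pygl, -0.40 to 0.070 for Pygm and -0.29 to 0.29 for Ugp2. In each of these the value without MED13cTg replicate 1 was the highest and that without MED13cTg replicate 2 the lowest. Depth limits low genes such as Epm2a and Ppp1r3e most, and in MED13cTg EWAT replicates 1 and 2 more than elsewhere.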

Other observations

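Phkg2, the catalytic subunit of phosphorylase kinase found in liver and testis, was at 366 FPKM in MED13cTg replicate 1 of EWAT and at 10.1 to 20.5 FPKM in the other 5 EWAT libraries. The same library held 13638 FPKM of the 7 germ cell markers of the testis. In ventricles Phkg2 was at 9.44 to 12.8 FPKM. The gene was picked after its values were seen, and the part of testis RNA in its level was not tested.

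The summed phosphorylase FPKM, over Pygm, Pygb and Pygl, was 1046, 1003 and 994 in WT ventricles and 690, 1053 and 923 in MED13cTg ventricles. MED13cTg replicate 1, where Pygm was lowest, stood apart from the other 5 ventricle libraries in this sum.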
